A study of Mus musculus with 12 samples.

Results

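*Doc2a*, *Ip6k3*, *Med13l*, *Mcm3*, *Trim8*, *Dusp27* and *Lrrc10* are 7 of the 21669 transcript names counted in ribosome profiling and RNA sequencing of adult mouse left ventricle. They were chosen by their counts of ribosome-protected fragments (RPF, or footprints): apart from *Rpl3l* itself, they stood among the strongest differences toward fewer footprints in hearts without *Rpl3l*. All footprint differences between the genotypes given here are therefore descriptions of that choice and carry no test. The mRNA libraries took no part in the choice, so differences in RNA were tested.

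The study compared wild-type (WT) hearts with hearts of Rpl3l-/- mice (KO), which lack a ribosomal protein of the large subunit made in heart and skeletal muscle. Each genotype had 3 footprint libraries (RPF WT and RPF KO) and 3 poly(A)-selected RNA libraries (RNA WT and RNA KO), 12 in all, and the lysate of every sample held cycloheximide, which stops elongating ribosomes. Strain, sex, exact age and the design of the knockout allele are not given in the sources used here, and neither is whether animals were pooled, so p-values measure only the spread between these samples. A footprint is the piece of mRNA that a ribosome shields from RNase I, and the number of footprints of a gene depends both on how much of its mRNA is present and on how densely ribosomes occupy it. Where footprints and mRNA change by unequal amounts, their ratio, the translational efficiency (TE), differs.

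The 7 genes have no common pathway. *Dusp27* (now also called *Styxl2*) and *Lrrc10* are striated-muscle genes: the first encodes a phosphatase-like protein without catalytic activity that sits at the sarcomere, the second a leucine-rich repeat protein of cardiomyocytes. *Ip6k3* encodes an inositol hexakisphosphate kinase that makes inositol pyrophosphates and is known from skeletal muscle and heart. *Trim8* encodes a RING-type ubiquitin ligase linked to cytokine and NF-kappaB signalling. *Med13l* encodes a subunit of the kinase module of Mediator, the complex that links transcription factors to RNA polymerase II, and *Mcm3* a subunit of the replicative DNA helicase. *Doc2a* encodes a calcium sensor of vesicle exocytosis known from neurons.

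The start codon and its surroundings are where ribosomes enter the coding sequence, so these windows are shown for 6 of the transcripts. Each window gives 12 bases before the start codon, the start codon in capitals and 12 bases after it, in the transcript's own direction, from GENCODE M21 on GRCm38.
Ip6k3: ggacttggtgccATGgtggtgcggcac
Med13l: tcgcggaggaccATGaccgccgcggcg
Mcm3: cggagctgcgacATGgcgggcacagta
Trim8: cccgcagccgccATGgcggagaattgg
Dusp27: tgacaggctgacATGgctaccggtgga
Lrrc10: agcccgtttcacATGggaaacaccatc

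The contexts were not alike. A purine stood at the third base before the start codon in 5 of the 7, against 86.1% of the 11042 genes tested in footprints with a usable coding sequence, and a G directly after it also in 5, against 53.4%. Both features together, the strong form of the mammalian initiation context, were present in *Ip6k3*, *Mcm3*, *Trim8* and *Dusp27*, 4 of 7, against 46.1% of those genes. Upstream ATG triplets in the 5′ leader numbered 3 in *Trim8*, 2 in *Doc2a* and 1 in *Med13l*, and the other four had none, as did 49.5% of the genes.

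The transcripts lie on 6 chromosomes (GRCm38, GENCODE M21, which may not be the authors' annotation), and all are protein coding. Doc2a-201 spans chr7:126847553-126852705 on the plus strand with 11 exons, and Med13l-201 spans chr5:118560719-118765438 on the plus strand with 31 exons. Trim8-201 spans chr19:46501702-46516848 on the plus strand with 6 exons. Lrrc10-201 spans chr10:117045341-117046768 on the plus strand as a single exon, a structure that 1.94% of the tested genes share. Mcm3-201 and the *Dusp27* transcript lie on the minus strand of chromosome 1, with 17 and 6 exons, at chr1:20802968-20820312 and chr1:166098148-166127922. Ip6k3-201, with 6 exons, spans chr17:27143965-27167795 on the minus strand.

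*Ip6k3* is on the chromosome of the targeted gene, 2.41 Mb from *Rpl3l* (chr17:24727820-24736143). Of the 128 genes tested for footprints within 5 Mb of *Rpl3l*, *Ip6k3* among them, 15 (11.7%) had every KO library below every WT library, against 5.77% of all genes tested. In 4 of the 128 every KO library was above every WT library, as in 6.27% of all genes tested. The median footprint log2 fold change of the 128, KO minus WT, was -0.14, against 0.0014 over all genes. Of the 128, 81 were lower in KO, and 0 had an adjusted p below 0.05 in edgeR. In RNA, 9 of 111 genes in this window (8.11%) had every KO library below every WT library, against 3.19% of all genes. Another 6 had every KO library above, as 4.14% of all genes did. The median RNA log2 fold change of the 111 was -0.0138, against -0.00658 over all genes, with 60 lower in KO and 0 called by edgeR. The part of this neighbourhood in the difference of *Ip6k3* was not tested.

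In coding length the 7 ran from 822 bases in *Lrrc10* to 6621 bases in *Med13l*, against a median of 1413 bases over the tested genes. The GC content of the coding sequence was above the median of 53.1% in all 7, from 53.6% in *Mcm3* to 62.1% in *Trim8*, the latter higher than 94.7% of tested genes. Proline codons made up 9.11% of codons in *Med13l*, 8.03% in *Lrrc10* and 7.99% in *Trim8*, but 3.51% in *Dusp27* and 3.57% in *Mcm3*, around a median of 5.48%. Alanine codons lay between 4.80% in *Ip6k3* and 7.64% in *Mcm3*, around a median of 6.94%. The 5′ leaders were long in *Trim8* (742 bases) and *Doc2a* (651 bases) and short in *Med13l* (67 bases) and *Lrrc10* (82 bases), against a median of 179 bases.

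Uniqueness of sequence was examined because reads that match several genes can be counted wrongly. Of the windows of 25 bases in each transcript, 0 in *Doc2a*, *Ip6k3*, *Mcm3*, *Dusp27* and *Lrrc10* occurred in the same direction in a transcript of another gene, 6 of 9272 did in *Med13l* and 5 of 3556 in *Trim8*. In the opposite direction, 994 of the 2514 windows of *Doc2a* (39.5%) lay in *Ino80e*, a gene for a chromatin-remodelling subunit that overlaps *Doc2a* on the other strand by 1319 exonic bases. The strand setting of the counting is not given in the sources used here, so reads of the pair cannot be told apart by their names alone. *Ino80e* footprints were 23.2, 19.5 and 19.0 CPM in WT libraries 1 to 3 and 22.6, 16.3 and 23.1 CPM in KO libraries 1 to 3, with overlap of the groups. CPM is the count scaled to the library's size by the TMM method.

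Total counts lay between 3827862 and 7474602 in footprint libraries and between 6635242 and 8459004 in RNA libraries, of which mitochondrial transcripts took between 49.8% and 58.2% in RNA. A count of 3, taken here as the detection floor, corresponds to 0.404 to 0.791 CPM in footprints and 0.304 to 0.449 CPM in RNA. *Rpl3l* checked the labels: its mean footprint level was 229 ± 34 CPM in WT and 8.65 ± 4.2 in KO, and its RNA level 377 ± 44 and 44.0 ± 2.9 CPM (SD, n = 3 each). RPF WT 1 stood apart from the other footprint libraries on the first principal component (score -64.1, the others between 8.77 and 15.3), so the footprint differences of the 7 genes are given with and without it. Among RNA libraries the first component put WT 3, KO 1 and KO 3 (scores 19.5 to 25.4) against WT 1, WT 2 and KO 2 (scores -26.2 to -19.5), a split that does not follow genotype. Cardiomyocyte markers dominated, with a summed footprint level of 166600 to 186400 CPM in WT and 170000 to 182700 CPM in KO libraries, against 15.2 to 23.7 and 14.7 to 19.1 CPM for neuronal and glial markers.

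Ranked by edgeR's p-value among genes lower in KO footprints, the 7 held places 2, 4 and 6 to 10. *Rpl3l* held the first place, and *Hspb7* and *1700030K09Rik*, which held places 3 and 5, are not among the 7. The last inside was *Lrrc10* (log2 fold change -0.57), and the first outside was *Paqr7* (-0.65). By size of the difference alone the order was different: *Doc2a* was first of 11153 tested genes, while *Dusp27* and *Lrrc10* were at places 628 and 670. All 7 passed the filter on low counts in footprints, and all 7 had no overlap of WT and KO libraries, which the choice makes likely. Of all tested genes, 5.77% were separated in this direction and 6.27% in the other. After adjustment over all genes, edgeR's quasi-likelihood test called 1 footprint difference, that of *Rpl3l* (0.00897% of genes tested), and so 0 of the 7. DESeq2 called 3 genes lower in KO (0.0286%), *Doc2a* among them, and edgeR without a filter on low counts 47 (0.295%), 5 of the 7 among them. These counts describe the contrast that chose the genes, and nothing is read from them.

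**Figure D1:**
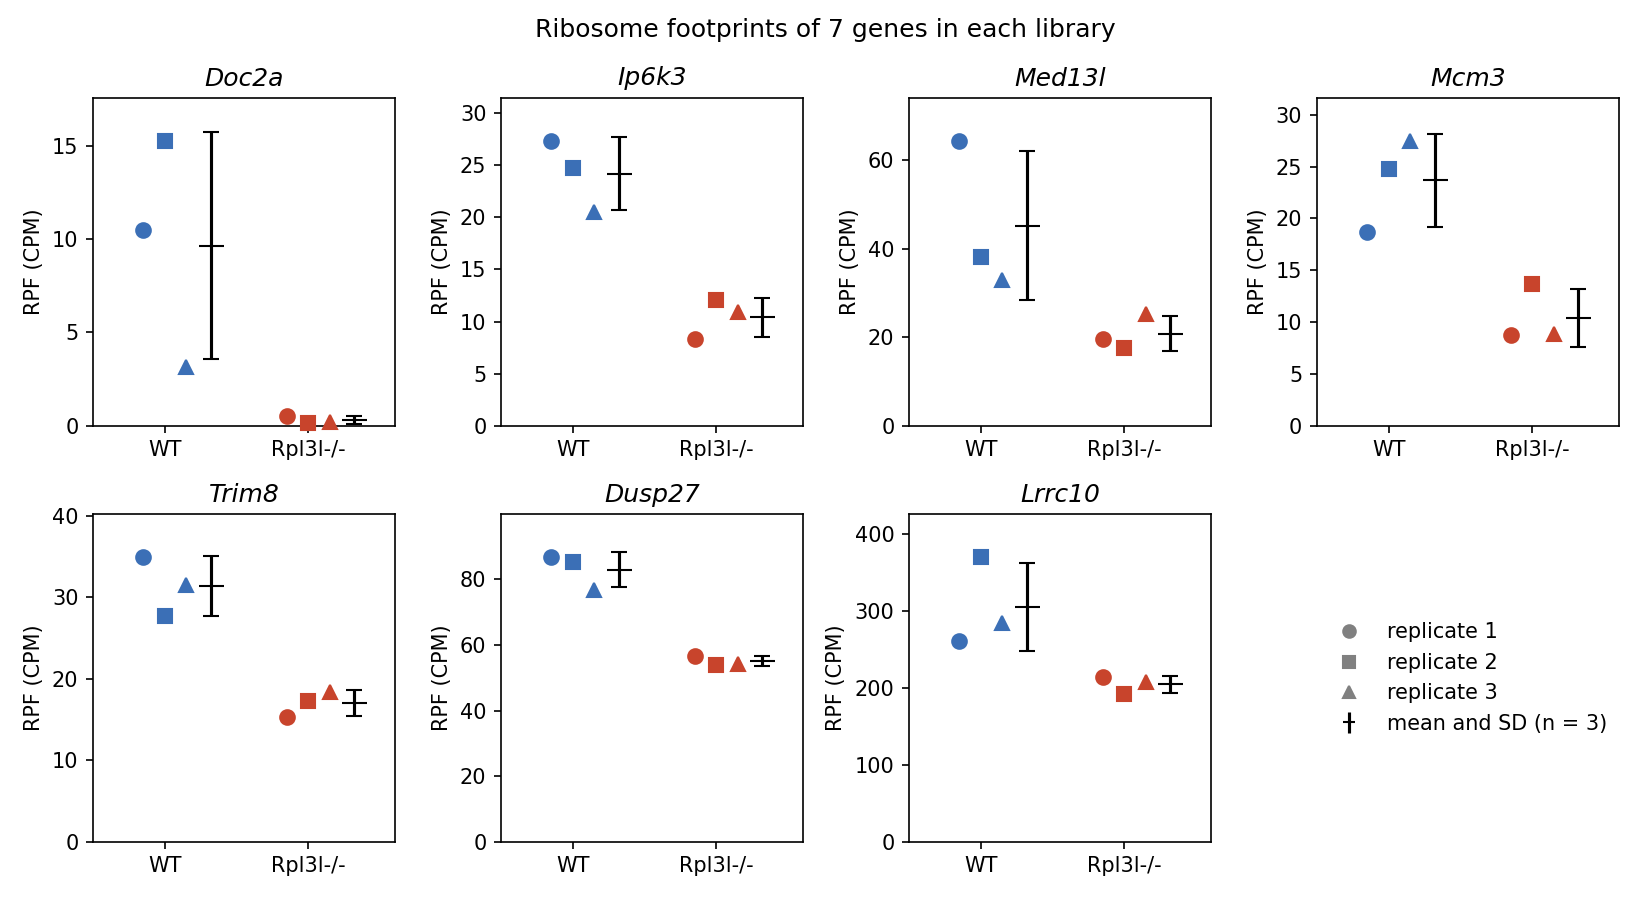
Footprint level of each of the 7 genes (vertical axes from 0, CPM) in 3 WT libraries (blue) and 3 Rpl3l-/- libraries (red); symbols give the replicate number, and the black bar is the mean with its SD. In every panel the 3 KO points lie below the 3 WT points, which the choice of genes makes likely. Replicate 1 is the highest WT point in 4 of the 7 panels.

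*Doc2a* had the widest gap and the fewest counts. Its raw footprint counts were 51, 58 and 15 in WT libraries 1 to 3 and 4, 1 and 1 in KO libraries 1 to 3, or 10.5, 15.3 and 3.17 CPM against 0.539, 0.147 and 0.210 CPM. WT 3 was well below the other two WT libraries, yet its level was 5.89 times the highest KO library. Over the summed counts, 124 in WT and 6 in KO, KO kept 3.41% of the WT rate. No interval is given for this share, because these counts chose the gene. The fitted log2 fold change was -4.85 (SE 0.78). Neuronal and glial markers did not separate the genotypes in footprints (ranges above).

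*Ip6k3* and *Med13l* were lower in KO footprints by about the same factor. *Ip6k3*, the inositol pyrophosphate kinase, had 27.4, 24.8 and 20.5 CPM in WT and 8.35, 12.02 and 10.9 CPM in KO libraries 1 to 3. Its WT mean was 2.32 times the KO mean, with a log2 fold change of -1.22 (SE 0.26). *Med13l*, the Mediator subunit, had 64.4, 38.2 and 33.0 CPM in WT and 19.5, 17.6 and 25.2 CPM in KO. WT 1 was far above the other WT libraries of *Med13l*, and the lowest WT library was 1.31 times the highest KO library. Its log2 fold change was -1.13 (SE 0.25).

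*Mcm3* and *Trim8* were also lower in every KO library. *Mcm3*, the helicase subunit, had 18.7, 24.8 and 27.5 CPM in WT and 8.76, 13.6 and 8.80 CPM in KO libraries 1 to 3. WT 1 was the lowest WT library of *Mcm3*, and the log2 fold change was -1.18 (SE 0.28). *Trim8*, the ubiquitin ligase, had 34.97, 27.7 and 31.5 CPM in WT and 15.4, 17.3 and 18.4 CPM in KO, with a log2 fold change of -0.89 (SE 0.21). The WT libraries of *Trim8* differed among themselves by less than their gap to the KO libraries.

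The muscle genes *Dusp27* and *Lrrc10* had the highest counts and the smallest differences. *Dusp27* had 86.8, 85.4 and 76.8 CPM in WT and 56.7, 54.0 and 54.3 CPM in KO libraries 1 to 3, with a KO mean of 55.0 ± 1.5 CPM (SD, n = 3). Its WT mean was 1.51 times the KO mean (log2 fold change -0.59, SE 0.15). *Lrrc10* had 261, 369.7 and 284 CPM in WT and 214, 192 and 207.5 CPM in KO, with WT 2 the highest library and WT 1 nearest to the KO group. Its log2 fold change was -0.57 (SE 0.15). Fewer cardiomyocytes, less RNA per cardiomyocyte and fewer ribosomes per RNA cannot be told apart by footprints alone in such bulk tissue. Beside these differences, the 16 cardiomyocyte markers had a median footprint log2 fold change of -0.028, with 8 lower and 8 higher in KO. At an unadjusted edgeR p below 0.05, which 5.96% of all tested genes reached, 4 of them (*Myl2*, *Tnni3*, *Csrp3* and *Cox6a2*) were lower. After adjustment edgeR called 0 of the 16. The 8 atrial markers had a median of 0.48, with 7 higher in KO and 0 past an adjusted p of 0.05 in edgeR. At an unadjusted edgeR p below 0.05, 4 of the 8 were higher, beside the same 5.96% of all tested genes. Their summed footprint level was 2449 to 3479 CPM in WT and 2825 to 3607 CPM in KO. The part of these markers in the results was not tested.

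Per kilobase of coding sequence, WT footprints were most abundant in *Lrrc10*, at 371 ± 70 CPM per kilobase (SD, n = 3), more than 10 times any of the others. *Dusp27* followed at 24.3 ± 1.6, then *Ip6k3* at 20.4 ± 2.9 and *Trim8* at 19.0 ± 2.2, and neighbours in this order overlapped within 1 SD. *Mcm3* (9.71 ± 1.8), *Doc2a* (7.94 ± 5.0) and *Med13l* (6.83 ± 2.5) came last and overlapped within 1 SD. In KO the order per kilobase changed: *Trim8* (10.3 ± 0.94) was above *Ip6k3* (8.78 ± 1.6), and *Doc2a* (0.246 ± 0.17) was last by a wide margin.

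Whether the replicate 1 libraries carry the lower footprints was examined by leaving them out. In WT, library 1 was the highest of the 3 for *Ip6k3*, *Med13l*, *Trim8* and *Dusp27*, 4 of 7, while it was so for 36.5% of all tested genes. Its level relative to the mean of WT 2 and WT 3 was 1.81 for *Med13l*, beyond the upper quartile of 1.24 over all genes, and between 0.716 (*Mcm3*) and 1.21 (*Ip6k3*) for the other six. In KO, library 1 was the highest for *Doc2a*, *Dusp27* and *Lrrc10* and the lowest for *Ip6k3*, *Mcm3* and *Trim8*. The ratio of KO 1 to the mean of KO 2 and KO 3 was 3.03 for *Doc2a*, which rests on 4, 1 and 1 counts, and between 0.729 and 1.07 for the others.

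Without WT 1 the log2 fold change of *Med13l* shrank from -1.13 to -0.78 (SE 0.23), the largest move toward 0 among the 7. Those of *Ip6k3* (-1.12), *Trim8* (-0.80) and *Dusp27* (-0.56) moved little, and those of *Mcm3* (-1.32) and *Lrrc10* (-0.67) grew. *Doc2a* was at -4.78 without WT 1. Without both replicate 1 libraries the values were -5.53 (SE 1.01) for *Doc2a*, -0.97 (SE 0.28) for *Ip6k3*, -0.74 (SE 0.25) for *Med13l* and -1.20 (SE 0.29) for *Mcm3*. They were -0.73 (SE 0.24) for *Trim8*, -0.58 (SE 0.18) for *Dusp27* and -0.71 (SE 0.17) for *Lrrc10*. Thus 65.8% of the log2 difference was left for *Med13l*, 80.0% for *Ip6k3* and 82.4% for *Trim8*, and between 98.1% and 123% for the other four. None of the 7 had overlap in the full set of libraries, so the remaining 4 libraries had to be separated too, and nothing is read from that. Among these 4, the lower WT library was 1.31 times (*Med13l*) to 15.1 times (*Doc2a*) the higher KO library. The differences were thus as large or nearly as large without replicate 1 in *Doc2a*, *Mcm3*, *Dusp27* and *Lrrc10*, and smaller in the other three.

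**Figure D2:**
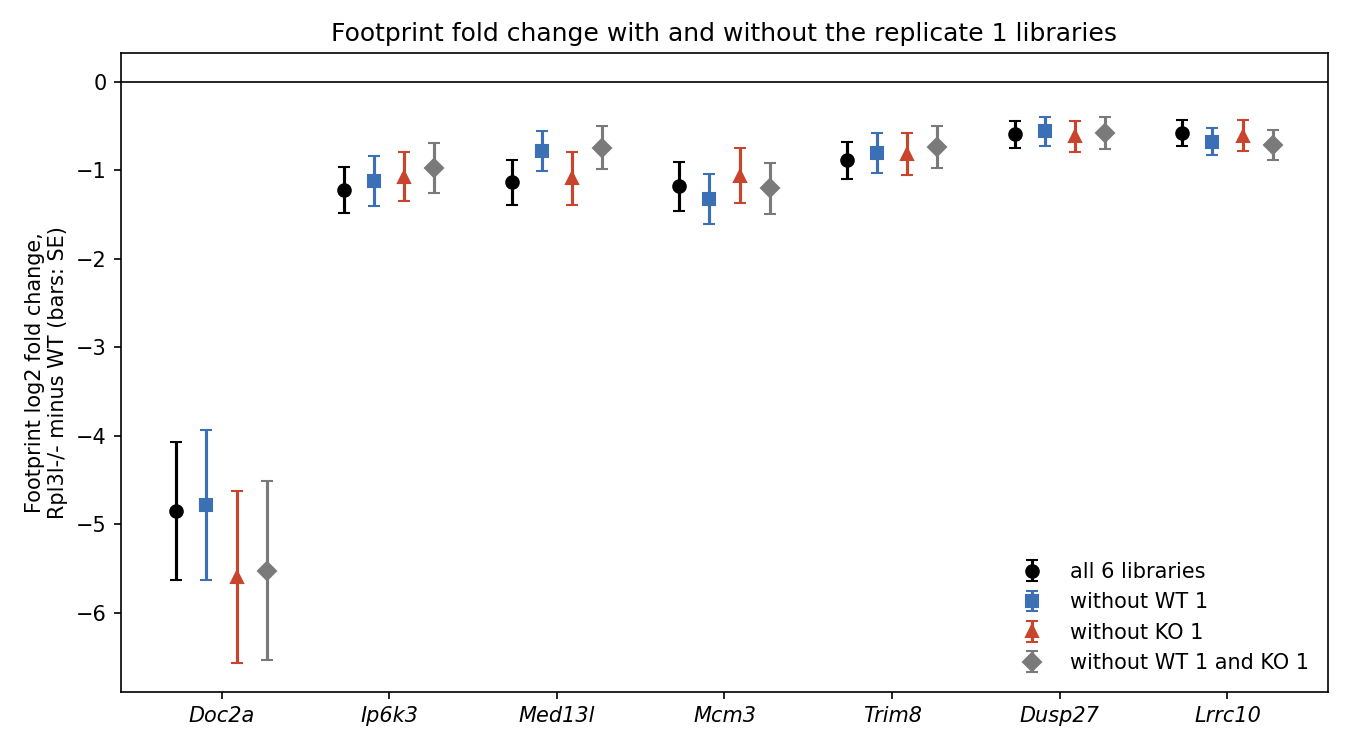
Footprint log2 fold change, Rpl3l-/- minus WT (vertical axis; bars are SE), for the 7 genes fitted with all 6 footprint libraries, without WT 1, without KO 1 and without both. All values stay below 0, which the lack of overlap between WT and KO libraries makes nearly certain. *Med13l* moves from -1.13 to -0.74 and *Lrrc10* from -0.57 to -0.71 when both replicate 1 libraries are left out.

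RNA was tested for 4 of the 7: *Mcm3*, *Trim8*, *Dusp27* and *Lrrc10* passed the filter on low counts, and *Doc2a*, *Ip6k3* and *Med13l* did not. No RNA change passed an adjusted p of 0.05 in edgeR's quasi-likelihood test over 8379 genes: 0 of 4 were called, against 0.0119% of all genes tested, which is *Rpl3l* alone. At an unadjusted p below 0.05 there was 1 of 4, *Trim8*, and DESeq2 called 0 of 4. Without a filter edgeR called 4 genes lower in KO RNA (0.0255% of 15705), and 0 of the 7 were among them. Of the 4 tested, 0 had all KO RNA libraries below all WT RNA libraries, as 3.19% of all tested genes did. *Trim8* had all KO libraries above, as 4.14% did. With so few genes, nothing is read from these counts.

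*Trim8* RNA was higher in KO, opposite to its footprints. RNA levels were 2.29, 3.12 and 4.40 CPM in WT and 5.61, 5.24 and 4.76 CPM in KO libraries 1 to 3, without overlap. The log2 fold change was 0.64 (SE 0.28, 95% interval 0.023 to 1.26), with an edgeR p of 0.0435 before and 0.999 after adjustment over all genes. The exact two-sided permutation test gave p = 0.1, the smallest that 3 against 3 libraries allow. These levels rest on 82 counts in WT and 120 in KO, and the log2 value was 0.45 without RNA WT 1 and 0.93 without RNA WT 3.

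*Mcm3* RNA was level between the genotypes, at 2.01, 2.73 and 3.77 CPM in WT and 2.66, 3.60 and 2.94 CPM in KO libraries 1 to 3, with full overlap. The log2 fold change was 0.09 (SE 0.31), with a 95% interval of -0.602 to 0.773. Its footprint value was -1.18. Intervals of footprint values are not set against those of RNA, because the footprints chose the genes. *Dusp27* RNA levels were 11.3, 11.95 and 15.6 CPM in WT and 10.5, 11.8 and 13.2 CPM in KO, a log2 fold change of -0.13 (SE 0.20). The 95% interval of this RNA value was -0.568 to 0.303. *Lrrc10* RNA levels came to 19.6, 22.7 and 34.6 CPM for WT libraries and to 24.4, 17.1 and 24.0 CPM for KO libraries, a log2 fold change of -0.24 (SE 0.24). Here the 95% interval of the RNA value was -0.767 to 0.295. It includes -0.57, the footprint value, so an RNA difference of that size could not be told from none at this spread. The RNA intervals of *Mcm3* and *Dusp27* did not reach their footprint values, -1.18 and -0.593, the latter narrowly. Because these footprint values chose the genes, nothing is read from that. Without RNA WT 3 the values of *Dusp27* and *Lrrc10* were 0.027 and 0.043, and without RNA WT 1 that of *Mcm3* was -0.099. The adjusted edgeR p was 0.999 for all 3, and the exact two-sided permutation p was 0.7, 0.6 and 0.6. Beside these values, the summed RNA level of the 16 cardiomyocyte markers was 59370 to 75900 CPM in WT and 57810 to 63740 CPM in KO, with 13 of them lower in KO and 0 called by edgeR. The 6 atrial markers tested in RNA had a median log2 fold change of 0.53, with 5 higher in KO and 0 called. At an unadjusted edgeR p below 0.05, 3 of the 6 were higher, against 2.54% of all genes tested in either direction. The part of these markers in the RNA results was not tested.

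The scarce RNAs allow only coarse statements. *Doc2a* had 2, 0 and 0 RNA counts in WT and 1, 0 and 0 in KO, all under the floor of 3 counts, so no RNA fold is given. *Ip6k3* had 4, 6 and 10 counts in WT and 4, 2 and 9 in KO, and *Med13l* 6, 4 and 5 in WT and 4, 7 and 5 in KO. Their log2 fold changes in an edgeR fit without a filter were -0.37 (SE 0.63) for *Ip6k3* and 0.15 (SE 0.66) for *Med13l*, with an adjusted p of 1 for each. Whether the RNA of either differed by as much as its footprints was not settled at this depth, and the smallest detectable change was not computed. WT 3, at one end of the split among RNA libraries, was the highest WT library for *Ip6k3*, *Mcm3*, *Trim8*, *Dusp27* and *Lrrc10*.

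**Figure D3:**
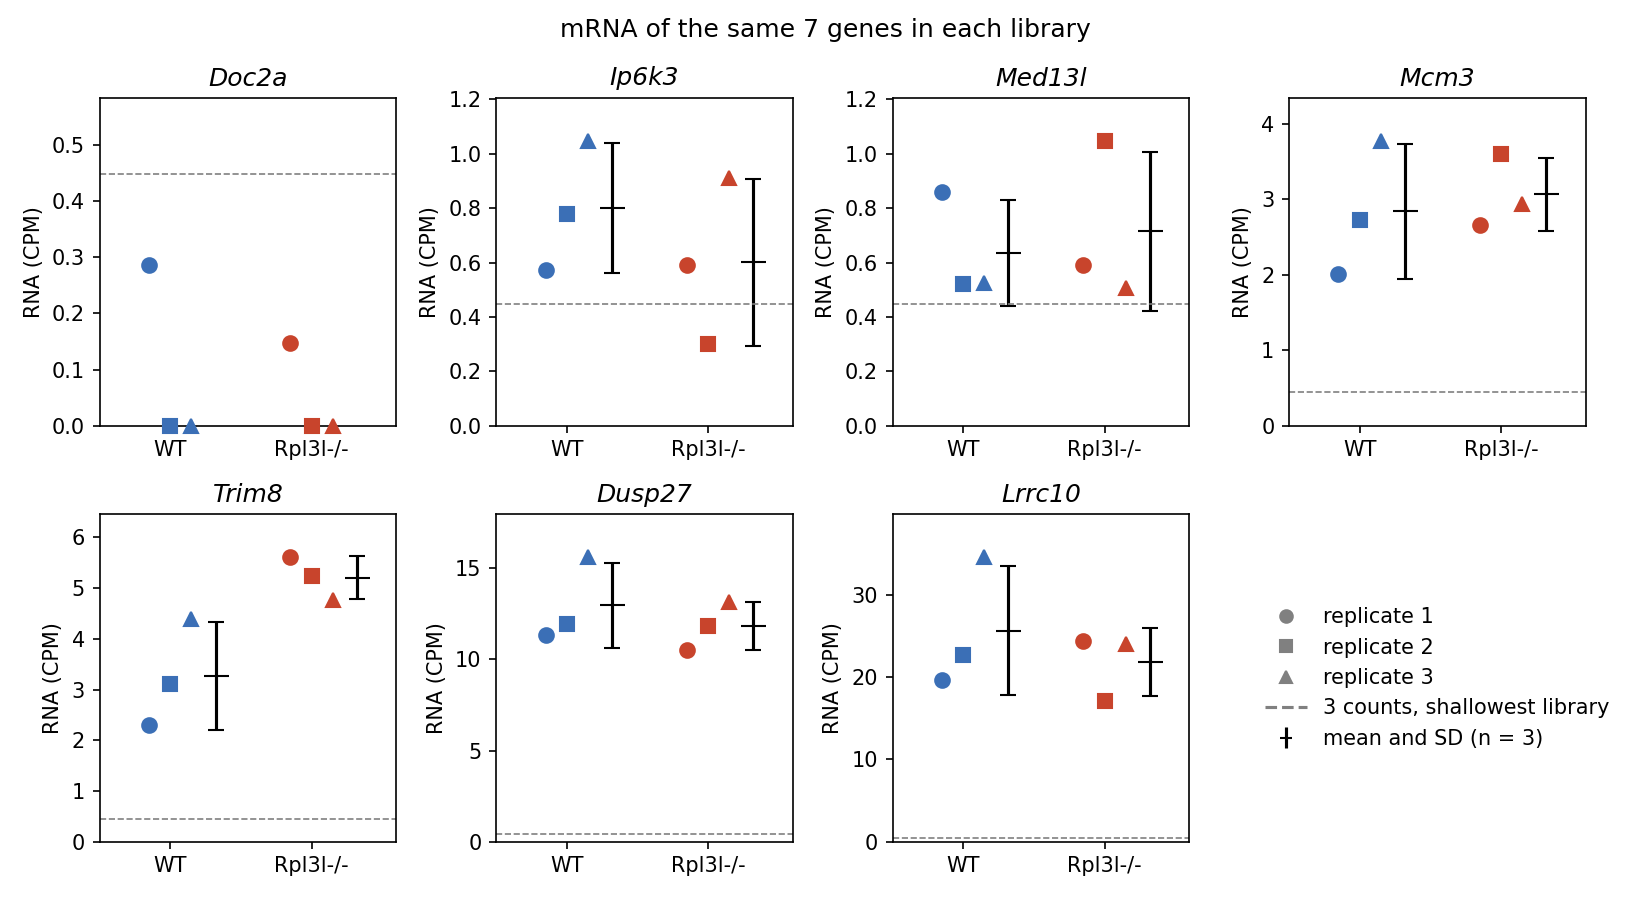
RNA level of the 7 genes (vertical axes from 0, CPM) in 3 WT (blue) and 3 Rpl3l-/- libraries (red), with replicate symbols and, except for *Doc2a*, the mean and SD in black; the dashed line is the level of 3 counts in the library where it is highest, 0.449 CPM. WT and KO points overlap in every panel but that of *Trim8*, where the 3 KO points lie above the 3 WT points, and every *Doc2a* point lies under the dashed line.

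The translational efficiency combines both assays and so contains the footprint difference that chose the genes. For *Mcm3*, *Trim8*, *Dusp27* and *Lrrc10*, which had enough counts in either assay, the TE log2 value, KO minus WT, was -1.51 (SE 0.34) for *Trim8*, -1.24 (SE 0.42) for *Mcm3*, -0.44 (SE 0.24) for *Dusp27* and -0.32 (SE 0.30) for *Lrrc10*. That of *Trim8* joins lower footprints to higher RNA. That of *Lrrc10* was -0.08 without the WT 2 pair of libraries and -0.62 without the WT 3 pair. Without both replicate 1 pairs *Trim8* was at -1.10 (SE 0.39). Over all 8044 genes edgeR called 0 TE differences, with 3.73% at an unadjusted p below 0.05, and DESeq2 called 1 lower in KO (0.0124%), which is *Rpl3l*.

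**Figure D4:**
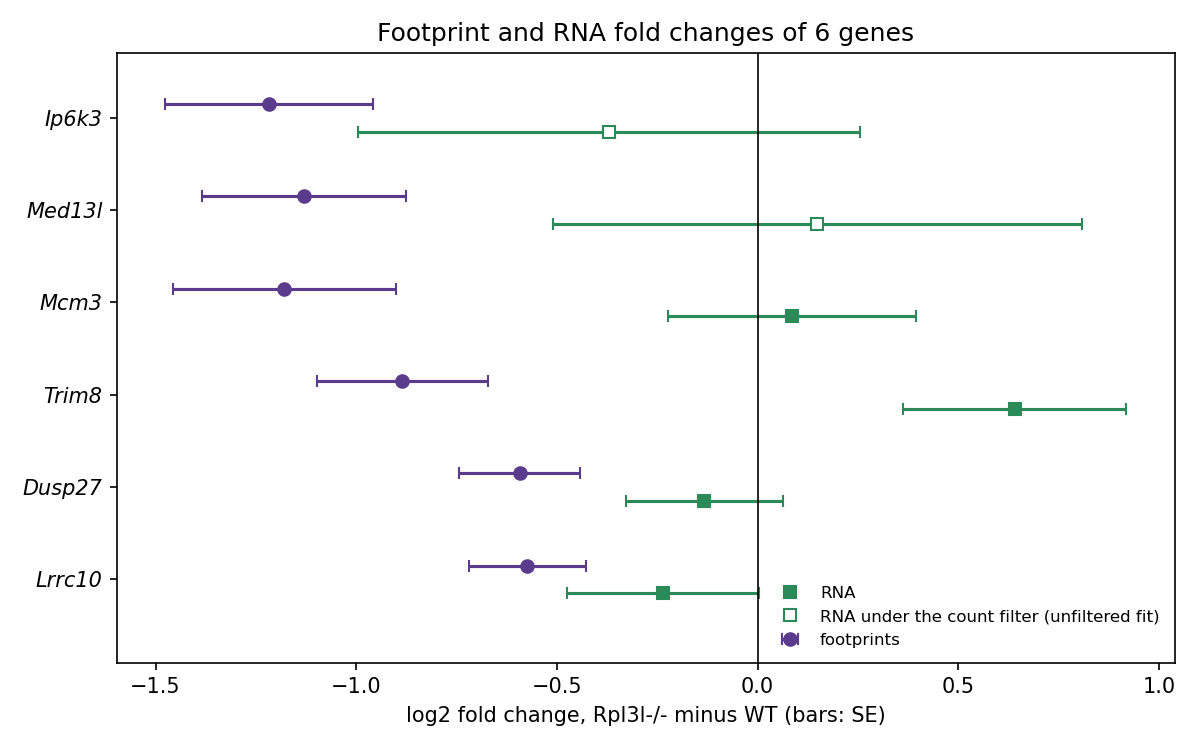
Log2 fold change, Rpl3l-/- minus WT (horizontal axis; bars are SE), in footprints (purple circles) and RNA (green squares; open where the RNA was under the count filter) for 6 of the genes; *Doc2a*, with 3 RNA counts in all, is left out. Footprint values lie between -1.22 and -0.57, and the RNA values between -0.37 and 0.64. RNA values of *Trim8* (0.64), *Med13l* (0.15) and *Mcm3* (0.09) lie above 0.

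As a level within one genotype, the ratio of mean footprint CPM to mean RNA CPM in WT was above the median of 3.27 over 8044 genes for the members with enough RNA. It was 11.9 for *Lrrc10*, 9.60 for *Trim8*, 8.35 for *Mcm3* and 6.40 for *Dusp27*, higher than between 68.6% and 82.2% of those genes. *Med13l* (71.2) and *Ip6k3* (30.3) were higher than 98.8% and 94.5% of them, on 15 and 20 RNA counts in WT. With 0.5 CPM added to both levels, these ratios were 40.3 and 19.0, higher than 97.4% and 91.8% of the genes. In KO the ratio of *Trim8* (3.27) and *Mcm3* (3.40) came to the median of 3.29, while that of *Lrrc10* was 9.38 and that of *Med13l* 29.0. These ratios contain the footprint values that chose the genes. Paralogs not so chosen also had high WT ratios in part: 26.9 for *Med13* and 8.23 for *Ip6k1*, but 2.24 for *Ip6k2*. The ratio compares footprints and RNA without correction for the region counted, which is not given in the sources used here.

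**Figure D5:**
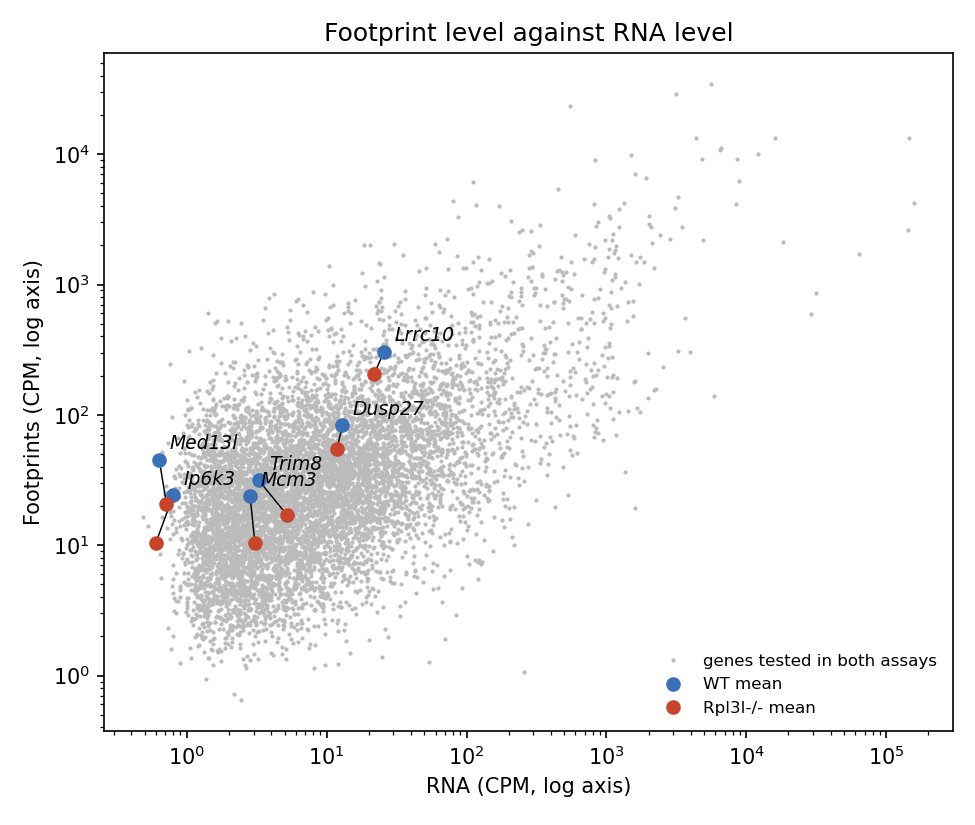
Mean footprint level against mean RNA level (both log axes, CPM) for 6 of the genes in WT (blue) and Rpl3l-/- (red), joined by a line, over the WT means of the 8044 genes tested in both assays (grey). All 6 lines run down from WT to KO; those of *Ip6k3*, *Dusp27* and *Lrrc10* lean to lower RNA, those of *Med13l* and *Mcm3* slightly to higher RNA, and that of *Trim8* most clearly to higher RNA; *Doc2a* is left out because its RNA lies under 3 counts in every library.

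The partners and relatives of the 7 genes were followed in 11 lists of 231 genes. Of these, 187 were tested in footprints and 138 in RNA, and edgeR called 0 in either, as did DESeq2. At an unadjusted p below 0.05, 9 genes stood out in footprints (4.81%, against 5.96% of all genes tested) and 3 in RNA (2.17%, against 2.54%). The lists hold the genes nearest to each member in complex, family or pathway, and a median below is that of the footprint log2 fold change, KO minus WT, against 0.0014 over all genes.

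The helicase that *Mcm3* belongs to has 5 other subunits of the Mcm2 to Mcm7 ring. Their footprint log2 fold changes were -0.15 (*Mcm2*), 0.04 (*Mcm4*), -0.36 (*Mcm5*), -0.18 (*Mcm6*) and -0.49 (*Mcm7*), each with overlapping libraries and a median of -0.18. *Mcm7* was nearest to *Mcm3*, at 20.2 CPM in WT and 14.2 CPM in KO (SE 0.32, with an adjusted edgeR p of 0.853). The 21 other licensing and replication genes tested had a median of 0.0033, with 10 lower and 11 higher in KO. Markers of dividing cells had summed footprints of 53.3 to 63.9 CPM in WT and 47.8 to 85.9 CPM in KO.

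The kinase module of Mediator holds *Med13l* with *Med12*, *Med12l*, *Med13*, *Cdk8*, *Cdk19* and *Ccnc*. All 6 others were tested in footprints, with 2 lower and 4 higher in KO. The closest paralog *Med13* was at 25.5 CPM in WT and 20.8 CPM in KO (log2 fold change -0.29, SE 0.25), and *Med12* at 52.0 and 47.2 CPM (-0.14, SE 0.18), both with overlap. *Cdk8*, the kinase itself, was at 2.75 CPM in WT and 4.51 CPM in KO (0.72, SE 0.59), with overlap. *Ccnc*, cyclin C, was higher in every KO library (0.59, SE 0.42), without passing the test (an adjusted edgeR p of 0.860). The 26 core Mediator subunits had a median of 0.074, with 11 lower and 15 higher.

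Among inositol phosphate enzymes, the other IP6 kinases differed little in footprints. *Ip6k1* was at 14.9 CPM in WT and 17.2 CPM in KO (0.21, SE 0.26), and *Ip6k2* at 12.7 and 10.3 CPM (-0.31, SE 0.29), the latter with all KO libraries below all WT libraries. The 30 tested genes of that list had a median of 0.083, with 11 lower and 19 higher. For *Doc2a*, *Doc2g* was the paralog that passed the filter, at 22.2 CPM in WT and 22.3 CPM in KO (-0.01, SE 0.30), and the 18 exocytosis genes tested had a median of 0.044.

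The muscle RING-finger relatives of *Trim8* were *Trim54* (-0.38, SE 0.15, 297.5 CPM in WT and 228 in KO), *Trim55* (0.03, SE 0.14) and *Trim63* (-0.02, SE 0.14) in footprints. *Trim54* had an unadjusted edgeR p of 0.0249 and an adjusted one of 0.834. Over the 31 TRIM genes tested, 15 were lower and 16 higher, with a median of 0.0020, and the 13 signalling partners of *Trim8* had a median of 0.19. The 20 dual-specificity phosphatase relatives of *Dusp27* had a median of -0.0056, with 11 lower and 9 higher. *Lrrc10* binds alpha-actinin, and footprints of *Actn2* were 3806 CPM in WT and 3929 CPM in KO (0.05, SE 0.11). Over the 11 partners of *Lrrc10* tested in footprints, 5 were lower and 6 higher in KO, with a median of 0.046. *Lrrc39*, another leucine-rich repeat gene of muscle, was at 26.4 and 28.7 CPM (0.12, SE 0.23). The list of muscle genes it stands in had 4 of 6 lower in KO footprints (median -0.12) and 5 of 6 lower in KO RNA (median -0.27), with 0 called by edgeR in either.

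The genes whose footprints varied most like each member over the 6 footprint libraries were found among 7950 genes with at least 50 counts on average, by Pearson's r of log2 CPM. The points share libraries and depth, and r takes in the difference between genotypes that chose the members, so it is a description. Each r is also among the highest of 7950 candidates over only 6 points, so values this high can arise between unrelated genes. *Dusp27* was closest to *Hspb7* (r = 0.983), a small heat shock protein gene of heart muscle at 2010 CPM in WT and 1437 CPM in KO, and to *Ttc32* (0.979). *Ip6k3* and *Trim8* shared *Psmd3*, a proteasome subunit, as the closest gene (0.993 and 0.985), followed by *Safb2* (0.987) and *Fkbp4* (0.976). *Med13l* was closest to *Tmem259* (0.993) and to *1700030K09Rik* (0.987), which was at 30.8 CPM in WT and 12.5 CPM in KO. For *Doc2a* the genes were *Coq5* (0.986) and *Dot1l* (0.985), for *Mcm3* *Ppcs* (0.989) and *Gphn* (0.979), and for *Lrrc10* *Zfp865* and *Mtrr* (both 0.991).

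Of the closest genes outside the 7, *Hspb7* and *1700030K09Rik* were themselves among the top 5 by p of the genes lower in KO in the same footprint contrast. *Hspb7* RNA averaged 20.5 CPM in WT hearts and 20.4 CPM in KO hearts (log2 fold change -0.01, SE 0.31), and RNA of *1700030K09Rik* was 3.10 and 2.54 CPM (-0.27, SE 0.36). In edgeR neither RNA value passed the test, with adjusted p-values of 1 and 0.999.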

How the data were processed

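The authors deposited 1 table of raw counts per library, whole numbers for 21669 transcript names. Cutadapt 1.18 and Bowtie2 2.4.2 are named in the submitters' processing notes; their settings, the genome build, the counting program, the region counted and the use of strand are not given in the sources used here. Of the names, 98.87% matched GENCODE M21 (GRCm38), the source of coordinates and sequences.

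The 12 libraries were grouped by their titles. Each assay's 6 libraries were fitted on genotype in edgeR 4.0.16 (R 4.3.3): filterByExpr with a minimum count of 10, TMM factors, quasi-likelihood F test, Benjamini-Hochberg adjustment over all genes tested at 0.05. TE is the assay-by-genotype interaction in a fit of 12 libraries. The SE was obtained from F and the log2 fold change, and 95% intervals use its t quantile. CPM uses TMM-scaled library sizes. DESeq2 1.42.0 was an alternative. Exact two-sided permutation tests used log2 of CPM with 0.5 added. The fits were tested on simulated counts. Figures used Python 3.11.15.

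The members and lists were chosen with earlier results of these data known. The genes named are the 7 members, *Rpl3l*, list genes that passed the test or, with none, preset paralogs and partners that passed the filter, and for each member the closest pair of genes by footprint pattern. *Hspb7*, *1700030K09Rik*, *Paqr7*, *Ino80e*, *Doc2g* and the marker genes were named after their values were seen. No 2 replicates agreed within sampling noise (chi-square per degree of freedom 6.53 to 31.7). Alternatives were median-of-ratios scaling, DESeq2, other filters, removal of mitochondrial transcripts, leaving out libraries, fitting the 12 libraries together and a replicate block. The start-codon window of *Doc2a* is not reported here.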

Additional observations from a re-analysis of the deposited data

How the results depend on the processing

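All footprint log2 fold changes of the 7 genes stayed below 0 under the 13 or 14 alternatives run for each. The lack of overlap between their WT and KO libraries made this nearly certain, so nothing is read from the sign. The median of the 7 values, -1.13, was -0.80 without RPF WT 1 and -0.744 without replicate 1 of both genotypes. It ranged from -1.14 to -0.80 when a library was left out. The median TE value of the genes tested in both assays, -0.841, became -0.416 with a mean of at least 50 counts, where 2 genes were left, and lay between -1.0 and -0.747 with single replicates removed.

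RNA differences near 0 changed sign: *Mcm3* from 0.09 to -0.0986 without RNA WT 1, -0.0392 without RNA KO 2 and -0.0109 without replicate 1 of both genotypes (0.358 at most, without RNA WT 3), and without RNA WT 3 *Dusp27* from -0.13 to 0.0273 and *Lrrc10* from -0.24 to 0.0434; the lowest values with 1 library left out were -0.222 and -0.393. *Trim8* ranged from 0.40 without replicate 1 of both genotypes to 0.925 without RNA WT 3, with an adjusted edgeR p between 0.519 and 1 over its alternatives. The causes were not tested.

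In footprints 1 gene, *Rpl3l*, was called over all genes. DESeq2 called 5, *Doc2a* among them, the fit without a filter 60, with 5 of the 7 genes (*Doc2a*, *Ip6k3*, *Lrrc10*, *Mcm3*, *Med13l*) among 47 lower in KO, and leaving out a library 1 to 2, *Doc2a* being the second without RPF WT 3. The replicate block called 4, *Doc2a* among them. Deviations of same-numbered WT and KO libraries correlated at a mean of 0.031 in RPF and at -0.203, 0.358 and 0.405 in RNA, so the numbers were not taken as pairs. In RNA the fit without a filter called 4 genes and leaving out a library 1. In TE edgeR called 0 (300 at an unadjusted p below 0.05) and DESeq2 1. Depth limited the RNA of 3 genes: *Doc2a*, *Ip6k3* and *Med13l* had at most 10 RNA counts in any library.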
